A study of Homo sapiens with 6 samples.

Results

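The aquaporins are channel proteins that let water, and in some members glycerol or hydrogen peroxide, cross cell membranes. Counts of 8 aquaporin genes, AQP1, AQP2, AQP3, AQP5, AQP6, AQP7, AQP8 and AQP11, are described here, out of 28278 genes listed in each library. The family was chosen by the rise of AQP2 in the same comparison that is described below, and the members were selected with these values known. Their differences between the groups are therefore given as a description, with standard errors and no p-value, and where the calls of the fit over all genes are counted for them nothing is read from the counts.

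The RNA-Seq was made from HT29 cells, a human colorectal adenocarcinoma line with epithelial morphology. The study asked how gene expression changes when ALDOA, a glycolytic enzyme, is depleted. In the siALDOA group the cells received an siRNA against ALDOA, and in the siControl group a scrambled siRNA. Total RNA was taken 48 h later from 3 biological replicates per group. All 6 libraries come from 1 cell line, all cells were exposed to an siRNA, and untransfected cells were not analysed here. The ALDOA knockdown is transient and partial, with ALDOA mRNA at 289 ± 13.7 CPM against 632 ± 38.2 CPM in siControl (SD, n = 3 each; CPM, counts scaled to the size of the library). The libraries held 27277538 to 33237914 counts on genes, of which ribosomal RNA genes took 7.71% to 17.4%. CPM values below are scaled by TMM normalization, and 1 read equals 0.030 to 0.036 CPM. An edgeR quasi-likelihood fit compared the groups over the 15307 genes that passed its filter on low counts. In bulk RNA, fewer cells that express a gene and less RNA per cell cannot be told apart.

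Of the colon epithelial markers, 7 of 8 were tested, with summed levels of 8374 to 8608 CPM with siALDOA and 9183 to 9648 CPM with siControl. The keratins KRT8 and KRT18 made up most of these sums, with siControl means of 5595 and 2320 CPM. KRT18 fell by 0.28 on the log2 scale (edgeR adjusted p = 0.0152). No other of the 7 was called, and 1 of them had a positive log2 fold change. LGALS4 was listed at 0 in every library, as was DGAT1, an enzyme of triglyceride synthesis. A gene listed at 0 is therefore reported only as such. Leukocyte and red blood cell markers summed to at most 0.493 and 0.224 CPM in any library. Fibroblast markers summed to 3.03 to 4.33 CPM with siALDOA and 3.05 to 4.39 CPM with siControl. Endothelial markers summed to 1.09 to 1.90 and 2.03 to 2.50 CPM, respectively. Of these other lists 4 markers were tested, and PECAM1, an adhesion molecule, was called lower (log2 fold change -1.23, edgeR adjusted p = 0.0429). The part of these shifts in the aquaporin values was not tested.

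The orthodox aquaporins conduct water and include AQP1, AQP2, AQP5 and AQP8. AQP6 belongs to the same branch by sequence, resides in intracellular vesicles and conducts anions. The aquaglyceroporins AQP3 and AQP7 also pass glycerol, and AQP3, AQP5 and AQP8 are known to pass hydrogen peroxide. AQP11 is a distant relative found in the endoplasmic reticulum. AQP2 is best known from the collecting duct of the kidney, where vasopressin acts through cAMP to move it to the apical membrane and to raise its transcription. In the colon, AQP3 and AQP8 are the aquaporins most often described in the epithelium, and AQP5 is a channel of secretory glands.

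AQP2, AQP5 and AQP6 lie side by side on the plus strand of chromosome 12 in hg38. In GENCODE release 44, AQP2 (ENSG00000167580) spans 49950737 to 49958878, AQP5 (ENSG00000161798) spans 49961872 to 49965682 and AQP6 (ENSG00000086159) spans 49967194 to 49977139. The gaps are 2993 bases between AQP2 and AQP5 and 1511 bases between AQP5 and AQP6. The bases upstream of AQP2 and AQP5 are shown because these neighbours both had higher counts with siALDOA and differ in base composition. Both are from RefSeq (GRCh38.p14), plus strand, 250 bases before the annotated start, at chr12:49950487-49950736 for AQP2 and chr12:49961622-49961871 for AQP5. Capitals mark matches to the motifs searched.
AQP2: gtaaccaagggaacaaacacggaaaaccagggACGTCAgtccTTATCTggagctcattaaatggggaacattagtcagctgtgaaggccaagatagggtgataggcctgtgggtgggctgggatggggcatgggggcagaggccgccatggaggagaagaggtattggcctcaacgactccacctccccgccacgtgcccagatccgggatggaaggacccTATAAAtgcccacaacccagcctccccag
AQP5: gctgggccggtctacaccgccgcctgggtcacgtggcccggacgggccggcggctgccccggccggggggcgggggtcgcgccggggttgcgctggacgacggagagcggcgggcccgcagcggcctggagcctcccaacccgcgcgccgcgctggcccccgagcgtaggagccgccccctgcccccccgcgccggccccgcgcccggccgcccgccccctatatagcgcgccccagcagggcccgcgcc

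In the AQP2 sequence the first capitals mark ACGTCA, the core of a cAMP response element. The next mark the letters AGATAA of a GATA-factor site, read on the minus strand. The last mark TATAAA, the letters of a classical core promoter box. The searches covered both strands from 250 bases before to 50 bases after the start of each gene. The matches in AQP2 begin at positions -218, -208 and -29 from the start. Among all 35116 promoters, 7.98% held ACGTCA, 10.3% held AGATAA and 11.5% held TATAAA. AQP5 held none of the motifs searched. These also included the full cAMP response element TGACGTCA, which contains ACGTCA and was found in 1.85% of promoters. The core of the interferon-stimulated response element, GAAA and again GAAA with NN between, was in 3.57%. The gamma-activated sequence, TTC and GAA with NNN between, was in 7.66%. Neither was found in any of the 6 members that matched. The AQP5 window has 84.0% G and C and 49 CpG dinucleotides, and the AQP2 window has 57.7% and 11. The medians over all promoters were 58.7% and 14. The table of promoters matched 6 of the 8 members, all but AQP6 and AQP11. Of the other 4, AQP1 and AQP3 held TATAAA, AQP3 held ACGTCA on the minus strand, AQP8 held AGATAA and AQP7 held no match. A match describes the letters and is not evidence of a bound factor.

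AQP2 was rare in HT29 cells. Its raw counts were 62, 38 and 50 in siALDOA replicates 1, 2 and 3, and 18, 9 and 11 in siControl replicates 1, 2 and 3. These are 2.23, 1.26 and 1.76 CPM with siALDOA and 0.577, 0.295 and 0.334 CPM with siControl. Every siALDOA library was above every siControl library, and replicate 1 was the highest of its group on both sides. The group means were 1.75 ± 0.482 and 0.402 ± 0.153 CPM (SD, n = 3 each), for a log2 fold change of 2.11 (SE 0.41). The nearest libraries were siALDOA replicate 2 and siControl replicate 1. Their exact 95% Poisson intervals, 26.9 to 52.2 and 10.7 to 28.4 counts, overlap narrowly. Such intervals cover counting error only. Summed over the group, 150 AQP2 counts were found with siALDOA and 38 with siControl.

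AQP5 had the highest counts of the family with siALDOA, while with siControl its counts were close to those of AQP3. Its counts were 1147, 1406 and 1318 with siALDOA, against 737, 725 and 773 with siControl, in the order of the replicates. On the CPM scale these are 41.2, 46.8 and 46.4 against 23.6, 23.8 and 23.5. The siControl libraries lay close together, and all siALDOA libraries lay well above them. The means were 44.8 ± 3.11 CPM and 23.6 ± 0.149 CPM (SD, n = 3 each), for a log2 fold change of 0.92 (SE 0.077).

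AQP6 gave 43, 16 and 14 counts with siALDOA, against 16, 7 and 6 with siControl. The groups overlap on the CPM scale, where siControl replicate 1 (0.513 CPM) lies above siALDOA replicate 3 (0.493 CPM). The means were 0.857 ± 0.596 CPM and 0.308 ± 0.179 CPM (SD, n = 3 each), and the log2 fold change was 1.46 (SE 0.55). Leaving out siALDOA replicate 1 lowered the log2 fold change to 0.73, and leaving out siControl replicate 1 raised it to 2.03. Annotated exons of AQP6 share 137 bases, 2.67% of its exonic length, with RACGAP1 on the other strand. The strand setting of the counting is not given in the sources used here, so reads from the shared bases cannot be assigned to a strand.

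AQP1, the water channel of red blood cells and kidney proximal tubule, lies on the plus strand of chromosome 7 from 30911853 to 30925517. It had 393, 245 and 270 counts with siALDOA, against 293, 192 and 222 with siControl. In both groups replicate 1 stood highest, at 14.1 and 9.40 CPM, and the groups overlap. The means were 10.6 ± 3.13 and 7.48 ± 1.68 CPM (SD, n = 3 each), with a log2 fold change of 0.50 (SE 0.18). Without siALDOA replicate 1 it was 0.24. AQP1 shares 910 exonic bases, 27.9% of its exonic length, with ENSG00000250424 on the same strand, a gene not matched to a listed gene here, so reads over these bases cannot be assigned to one of them. Replicate 1 of each group thus had the highest AQP1, AQP2 and AQP6 of its group, and also the largest share of ribosomal RNA counts, 13.1% with siALDOA and 17.4% with siControl. In siControl replicate 2, with a share of 15.3%, AQP1 and AQP2 were the lowest of the group and AQP6 was not. The part of ribosomal RNA in these values was not tested. Defining red blood cell markers were near 0, as given above.

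AQP8, a water channel of the colon surface epithelium on chromosome 16 (25215731 to 25228932, plus strand), was at the limit of detection. It had 2 counts in siControl replicate 1 and 0 in the other 5 libraries. Taking 3 counts as the limit that a count of 0 allows (a one-sided 95% limit, where the two-sided interval used for AQP2 would end at 3.69), the limit is 0.091 to 0.108 CPM at this depth. AQP8 did not pass the filter and has no fold change.

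**Figure D1:**
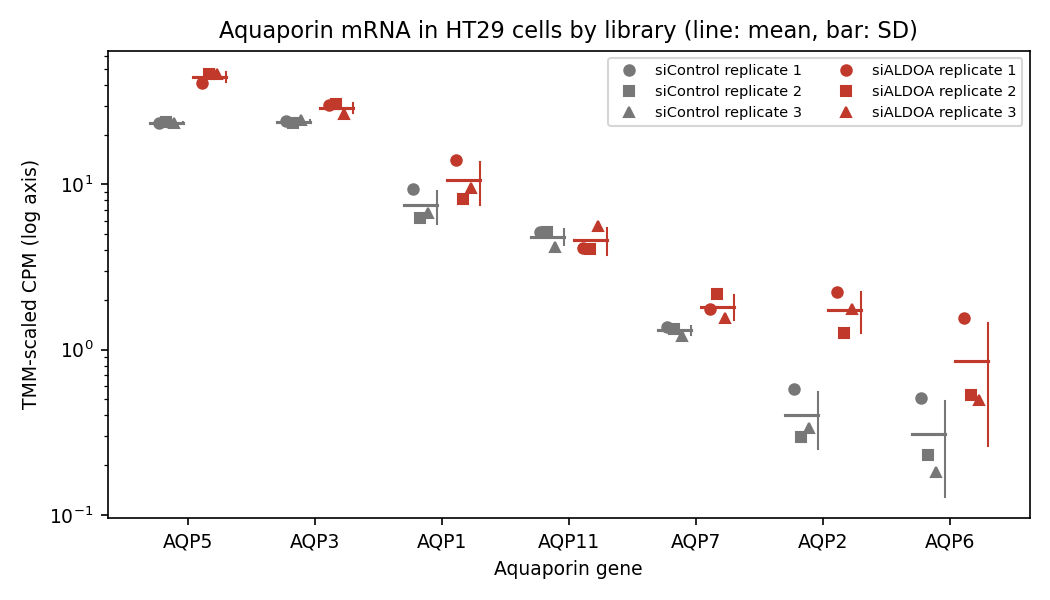
Level of each tested aquaporin in the 6 libraries, in TMM-scaled CPM on a log axis. Each symbol is 1 library, horizontal lines are group means and vertical bars are SDs. The siALDOA libraries of AQP5, AQP3, AQP7 and AQP2 all lie above the siControl libraries, while AQP1, AQP11 and AQP6 overlap. AQP8 is not drawn, since 5 of its 6 counts are 0.

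Of the aquaglyceroporins, AQP3 was the more abundant. AQP3 lies on the minus strand of chromosome 9 from 33441156 to 33447596, and AQP7 lies 38473 bases away on the same strand, from 33383179 to 33402682. AQP3 counts were 842, 917 and 762 with siALDOA, against 752, 714 and 809 with siControl. After scaling they were 30.2, 30.5 and 26.8 against 24.1, 23.4 and 24.6 CPM. The raw counts of the groups overlap and the scaled values do not, and the siControl libraries were the deeper ones. The means were 29.2 ± 2.06 and 24.0 ± 0.584 CPM (SD, n = 3 each), for a log2 fold change of 0.28 (SE 0.084).

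AQP7, the glycerol channel of fat cells, had 49, 65 and 44 counts with siALDOA, against 43, 41 and 40 with siControl. Its means were 1.82 ± 0.312 and 1.31 ± 0.0869 CPM (SD, n = 3 each), with a log2 fold change of 0.48 (SE 0.29) and no overlap between the groups. AQP7 has near-identical copies elsewhere in the genome, so its count is uncertain. It also shares 501 exonic bases (9.54%) with ENSG00000286322 on the other strand, which was not matched to a listed gene here. The AQP7 pseudogenes AQP7P1 and AQP7P3 had log2 fold changes of 0.011 (SE 0.47, edgeR adjusted p = 0.992) and -0.13 (SE 0.46, edgeR adjusted p = 0.902).

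AQP11 lies on the plus strand of chromosome 11 from 77589391 to 77610356. Its counts were 115, 122 and 159 with siALDOA, against 160, 157 and 138 with siControl. The means were 4.60 ± 0.867 and 4.82 ± 0.548 CPM (SD, n = 3 each), and the groups overlap. The log2 fold change of -0.069 (SE 0.18) was the only negative value among the 7 tested members.

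**Figure D2:**
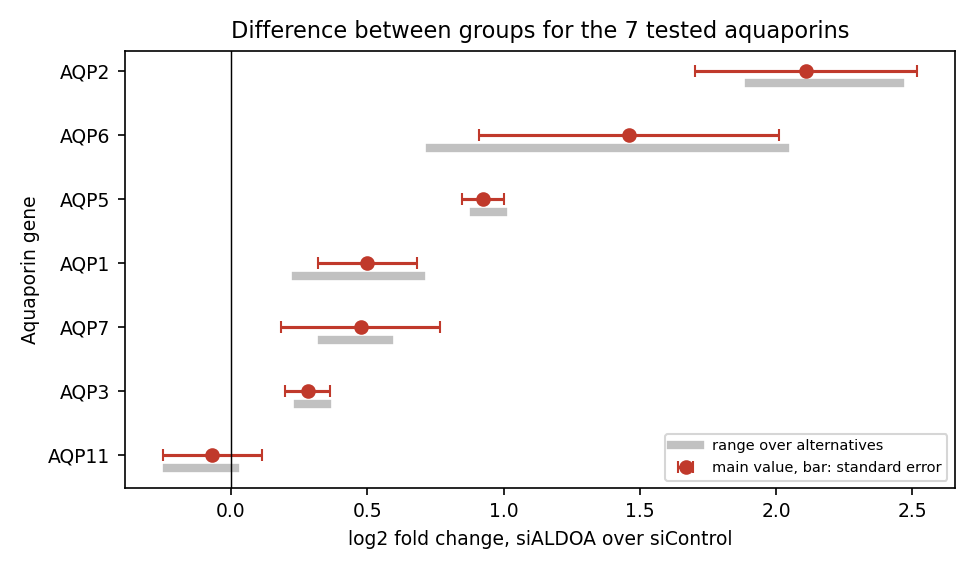
Log2 fold change of siALDOA over siControl for the 7 tested aquaporins (points), with standard errors (thin bars). Grey bars give the range over the alternative analyses. AQP2 ranges from 1.90 to 2.46 and AQP5 from 0.89 to 1.00, while AQP11 ranges from -0.24 to 0.014 around 0.

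In the fit over all genes, 668 genes (4.36%) were called higher with siALDOA and 810 (5.29%) lower, at an edgeR adjusted p under 0.05. With scaling by library totals only, 76.3% of the called genes were higher, against 45.2% with TMM factors. Of the 8 aquaporins 7 passed the filter, of which AQP2, AQP3 and AQP5 were called higher, none lower, and AQP1, AQP6, AQP7 and AQP11 were not called. All siALDOA libraries lay above all siControl libraries for 4 of these 7 and for 13.1% of all tested genes. They lay below for none of the 7 and for 14.6% of all tested genes. Since the comparison itself selected the family, nothing is read from these counts.

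Levels of different genes were compared per kilobase of the canonical transcript. By mean, the order with siALDOA was AQP5, AQP3, AQP1, AQP11, AQP7, AQP2, AQP6 and AQP8, with medians of 32.0, 16.6, 3.45, 2.25, 0.575, 0.421, 0.209 and 0 CPM per kb. With siControl the medians were 16.3 for AQP5, 13.2 for AQP3, 2.45 for AQP1, 2.80 for AQP11, 0.438 for AQP7, 0.0902 for AQP6, 0.0799 for AQP2 and 0 for AQP8. AQP1 was above AQP11 by mean (2.71 and 2.63 CPM per kb) and below it by median. The ranges of AQP1 and AQP11 overlap in both groups, and so do those of AQP2 and AQP6. AQP7 and AQP2 overlap with siALDOA and not with siControl. AQP5 and AQP3 do not overlap within either group. Per kilobase of all annotated exons instead, AQP2 preceded AQP7 with siALDOA (medians 0.409 and 0.335) and preceded AQP6 with siControl (medians 0.0775 and 0.0447). The order among AQP7, AQP2 and AQP6 therefore depends on the transcript length used.

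The aquaporins summed to 54.1, 55.4 and 54.3 CPM per kb with siALDOA and to 36.6, 34.9 and 34.9 CPM per kb with siControl. AQP5 supplied 56.6 ± 3.50% of the siALDOA sum and 46.0 ± 1.23% of the siControl sum (SD, n = 3 each). The share of AQP3 was 29.3 ± 1.95% with siALDOA and 37.1 ± 1.25% with siControl. AQP2 supplied 0.769 ± 0.219% and 0.269 ± 0.0946%, respectively. AQP2, with the largest fold change of the 7 tested members, was a minor part of the aquaporin mRNA in both groups.

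Of the other aquaporins, AQP4, AQP9, AQP10, AQP12A and AQP12B were listed at 0 in all 6 libraries. MIP, the lens water channel, had 1 count in siALDOA replicate 2, 9 counts in siControl replicate 3 and 0 in the rest.

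The genes around the chromosome 12 cluster were examined next, since 3 members lie there together. FAIM2, an inhibitor of Fas-mediated cell death in position before AQP2, was at 1.63 ± 0.484 CPM against 0.764 ± 0.227 CPM in siControl (SD, n = 3 each). Its log2 fold change was 1.09 (SE 0.37, edgeR adjusted p = 0.0653) and did not pass the test, although the groups did not overlap. It passed in 4 of 13 alternatives. AQP5-AS1, a long noncoding RNA on the minus strand, begins inside AQP5 and extends across most of AQP2. Its counts were 91, 75 and 60 with siALDOA, against 57, 30 and 47 with siControl, a log2 fold change of 0.89 (SE 0.29, edgeR adjusted p = 0.0590). It passed in 6 of 13 alternatives.

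RACGAP1, a GTPase-activating protein of cytokinesis downstream of AQP6, rose with siALDOA from 35.5 ± 2.40 to 45.6 ± 4.26 CPM (SD, n = 3 each; log2 fold change 0.36, SE 0.081, edgeR adjusted p = 0.00594). Without siControl replicate 2 the adjusted p of this edgeR fit was 0.0547. BCDIN3D, an RNA methyltransferase on the far side of FAIM2, had a log2 fold change of 0.18 (SE 0.096, edgeR adjusted p = 0.259). AQP5-AS1 exons cover 201 exonic bases of AQP2, 4.67% of its exonic length, and none of AQP5. Since the strand setting is not given, AQP2 and AQP5-AS1 reads cannot be told apart over these bases, and the part of AQP5-AS1 in the AQP2 counts was not tested. A second antisense gene without a symbol, ENSG00000257378, shares 560 exonic bases with AQP2 and was not matched to a listed gene here.

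**Figure D3:**
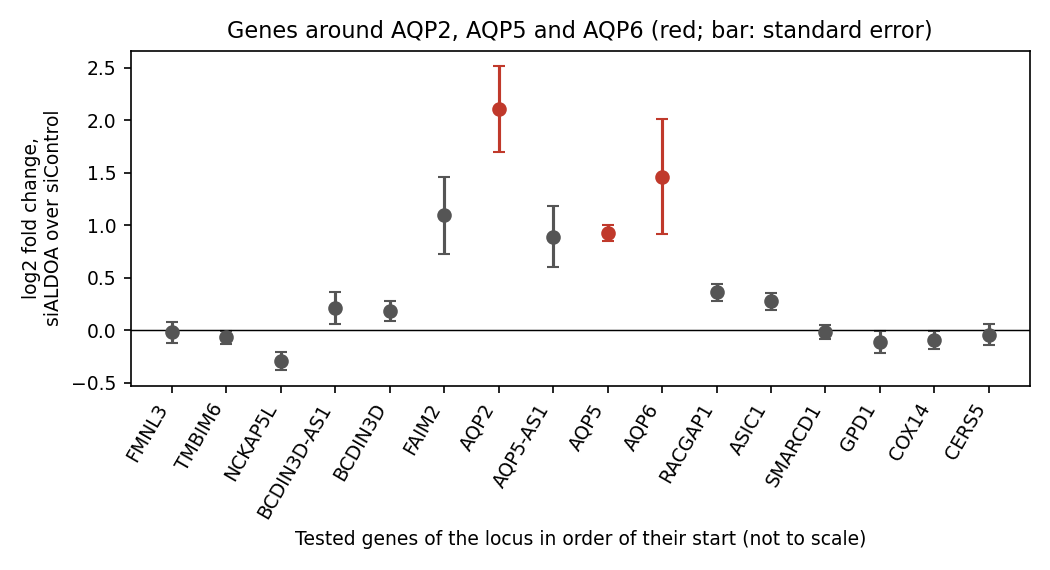
Log2 fold change with standard error (bars) of the tested genes of the chromosome 12 locus, in order of their start and not to scale, with the aquaporins in red. FAIM2, AQP2, AQP5-AS1, AQP5 and AQP6 lie between 0.89 and 2.11. The genes further out, from FMNL3 to BCDIN3D and from RACGAP1 to CERS5, lie between -0.30 and 0.36.

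Beyond these genes, ASIC1, an acid-sensing ion channel (log2 fold change 0.27, edgeR adjusted p = 0.0331), rose and NCKAP5L, a microtubule-associated protein (log2 fold change -0.30, edgeR adjusted p = 0.0424), fell. They were picked out after their values were seen. Of the nearest neighbours on chromosomes 7, 9 and 11, 0 of 12 rose by edgeR and 1 fell. At an unadjusted p under 0.05 edgeR had 1 higher and 3 lower, and DESeq2 and limma-voom each called 0 higher and 1 lower. The gene that fell was PAK1, a kinase downstream of Rac and Cdc42, beside AQP11 (log2 fold change -0.25, SE 0.057, edgeR adjusted p = 0.00756). Its adjusted p was 0.193 with edgeR on library totals only. CHMP5, NFX1 and NOL6, which surround AQP3 and AQP7, had log2 fold changes of 0.15, -0.075 and -0.19 and did not pass (edgeR adjusted p = 0.173, 0.623 and 0.146). MIR6851, the other neighbour there, had -0.55 (SE 0.47, edgeR adjusted p = 0.527). AAMDC, beside AQP11, had 3.31 ± 0.189 CPM against 4.81 ± 0.265 CPM in siControl (SD, n = 3 each), without overlap, and did not pass (log2 fold change -0.54, SE 0.18, edgeR adjusted p = 0.0638). CLNS1A, whose span on the minus strand (77514936 to 77637794) contains AQP11, had 0.054 (edgeR adjusted p = 0.664). RSF1, also beside AQP11, had -0.14 (edgeR adjusted p = 0.269). Around AQP1, the log2 fold changes of INMT-MINDY4, MINDY4, ITPRID1 and LSM5 were 0.047, 0.028, 0.34 and -0.083, and none passed (edgeR adjusted p = 0.913, 0.948, 0.789 and 0.703).

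None of the genes that control AQP2 in the kidney passed the edgeR test. Of 25 such genes, from the vasopressin receptor and cAMP signalling to vesicle transport, 24 were tested, 0 rose and 0 fell by edgeR, and the median log2 fold change was 0.0043, against 0.0016 over all tested genes. At an unadjusted p under 0.05 edgeR had 3 higher and 0 lower, DESeq2 called 1 higher and 0 lower, and limma-voom called 0. AVPR2, the vasopressin receptor of the collecting duct, had 0, 1 and 0 counts with siALDOA, against 1, 0 and 7 with siControl. The most abundant members were HSPA8, a chaperone (log2 fold change 0.14, SE 0.068, edgeR adjusted p = 0.208), and GNAS, the G protein subunit that activates adenylyl cyclase (-0.11, SE 0.058, edgeR adjusted p = 0.273). STX3, a SNARE protein of apical membrane fusion, was close to the threshold (log2 fold change 0.19, SE 0.061, edgeR adjusted p = 0.0511). It passed in 7 of 13 alternatives, and is named after its value was seen. Other markers of collecting duct principal cells were low. SCNN1B and CALB1 were listed at 0, and HSD11B2, which inactivates cortisol, was the only one tested (log2 fold change -0.64, edgeR adjusted p = 0.0561). The summed markers were 2.44 to 4.15 CPM with siALDOA and 4.55 to 6.57 CPM with siControl. HSD11B2 made up most of this sum, with means of 3.43 and 5.36 CPM, respectively. The sum therefore gives no direction for the other markers, which were at or near 0. The part of these markers in the AQP2 counts was not tested.

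Of 15 genes of the osmotic response and of cell volume control 13 were tested, of which 1 rose, 2 fell and 10 did not pass, with a median log2 fold change of -0.076. SLC6A6, the taurine transporter, had 181, 165 and 198 CPM with siALDOA and 155, 129 and 143 CPM with siControl (log2 fold change 0.35, SE 0.072, edgeR adjusted p = 0.00315). LRRC8A, the obligatory subunit of the volume-regulated anion channel, had 39.6, 38.6 and 37.8 CPM with siALDOA and 52.4, 48.0 and 53.2 CPM with siControl. Its log2 fold change was -0.40 (SE 0.069, edgeR adjusted p = 5.70e-04). LRRC8D, a partner subunit of the same channel, fell by 0.38 on the log2 scale (SE 0.065, edgeR adjusted p = 5.37e-04). All of these calls were made in 13 of 13 alternatives.

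Among the transporters and channels that drive epithelial water flow, 18 of 19 were tested, 0 rose and 2 fell, with a median of 0.025. At an unadjusted p under 0.05 edgeR had 2 higher and 5 lower, DESeq2 called 0 higher and 3 lower, and limma-voom called 0 higher and 2 lower. CFTR, the apical chloride channel, had 125, 125 and 115 CPM with siALDOA and 162, 164 and 147 CPM with siControl. Its log2 fold change was -0.37 (SE 0.062, edgeR adjusted p = 4.61e-04), and the call was made in 13 of 13 alternatives. ATP1B1, the beta subunit of the sodium pump, fell, with 341, 319 and 328 CPM with siALDOA, against 395, 386 and 389 CPM with siControl (log2 fold change -0.24, SE 0.054, edgeR adjusted p = 0.00517). The adjusted p of ATP1B1 was 0.204 with edgeR on library totals only.

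Of 18 genes of glycerol and triglyceride metabolism 17 were tested, with 0 higher and 0 lower by edgeR and a median log2 fold change of -0.069. At an unadjusted p under 0.05 there were 3 higher and 2 lower, DESeq2 called 1 higher and 0 lower, and limma-voom called 0. The most abundant were MGLL and PNPLA2, which cleave monoglycerides and triglycerides. Their log2 fold changes were 0.0045 (SE 0.059, edgeR adjusted p = 0.973) and -0.079 (SE 0.062, edgeR adjusted p = 0.482).

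Of 14 genes that make or remove hydrogen peroxide 12 were tested, 1 rose and 1 fell, with a median of 0.067. GPX2, the glutathione peroxidase of the gut epithelium, fell from 701 ± 14.1 to 560 ± 53.2 CPM (SD, n = 3 each; log2 fold change -0.33, SE 0.066, edgeR adjusted p = 0.00254). On library totals only its edgeR adjusted p was 0.0909. NOXO1, the organizer subunit of the NADPH oxidase NOX1, had overlapping groups, with 68.7, 90.7 and 82.1 CPM with siALDOA and 56.2, 67.9 and 71.5 CPM with siControl. It passed the test (log2 fold change 0.30, SE 0.092, edgeR adjusted p = 0.0408). Its edgeR adjusted p was 0.228, 0.107, 0.182 and 0.0842 without siALDOA replicate 2, siALDOA replicate 3, siControl replicate 1 and siControl replicate 2, respectively, and limma-voom gave an adjusted p of 0.051.

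Over these 5 lists, 2 of 84 tested genes rose (2.38%) and 5 fell (5.95%), beside 4.36% and 5.29% of all tested genes. The balance depends on the scaling, since library totals only gave 5 higher and 3 lower.

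**Figure D4:**
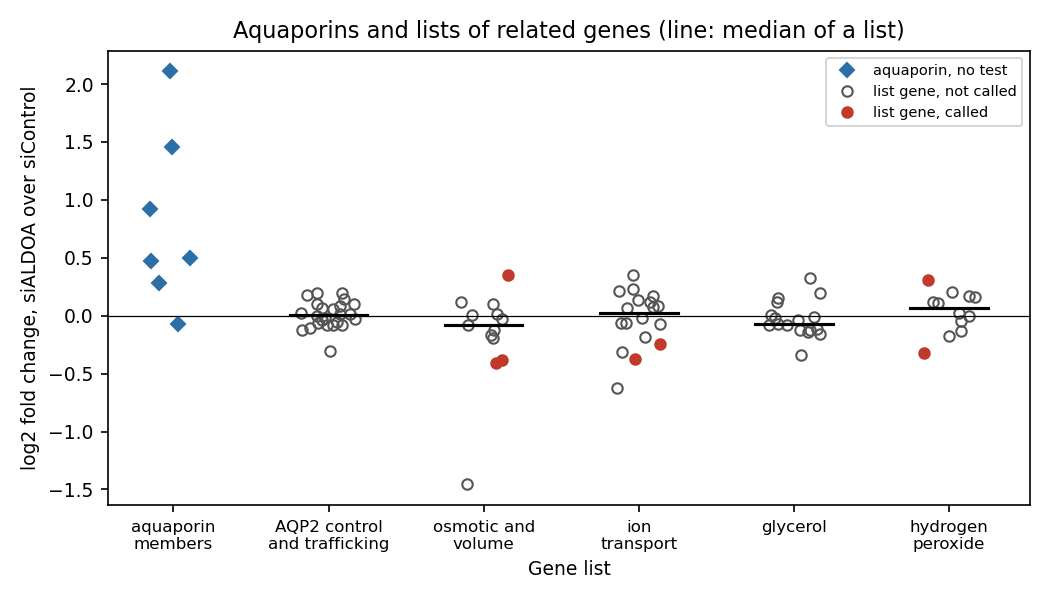
Log2 fold change of siALDOA over siControl for the 7 tested aquaporins and the genes of the 5 lists. Diamonds are the aquaporins, whose calls in the fit over all genes are not marked, since the comparison selected the family. Filled circles are list genes called at an edgeR adjusted p under 0.05, open circles are list genes not called, and lines are the medians of the lists, which lie between -0.076 and 0.067. The aquaporins lie between -0.069 and 2.11. All tested genes of the lists lie between -1.46 and 0.35, and the called ones between -0.40 and 0.35.

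The genes whose log2 CPM was most like that of AQP2 over the 6 libraries were NT5E, TBC1D3P2, CBX5, RAB8B and NCBP3, with Pearson r of 0.996, 0.9957, 0.9948, 0.9943 and 0.9938. NT5E, which makes adenosine at the cell surface, was at 150 ± 8.86 CPM against 111 ± 6.18 CPM in siControl (SD, n = 3 each). For AQP5 they were TRIM21, ERO1A, PARP14, OGFR and DPY19L1, with r of 0.9992, 0.9991, 0.999, 0.9989 and 0.9985. TRIM21, a ubiquitin ligase that binds antibodies inside cells, had a log2 fold change of 1.09 (SE 0.079), PARP14, an ADP-ribosyltransferase, 0.92 (SE 0.064) and OGFR, the opioid growth factor receptor, 1.03 (SE 0.067). ERO1A, an oxidase of protein folding in the endoplasmic reticulum, had 0.28 (SE 0.060). These correlations describe 6 points that share their libraries and fall into 2 groups of 3, and they were picked as the highest of all tested genes. No gene was among the 5 of both aquaporins.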

How the data were processed

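The 6 deposited files each hold whole-number counts per gene symbol for 1 library, which the authors made by aligning reads to hg38 with TopHat2 and counting them with gfold, without normalization. Which annotation was used, whether strand was counted and how multiply mapped reads were treated are not given in the sources used here. Groups, replicate numbers and the 48 h came from the labels, and no evidence beyond "biological replicate" says how separate the cultures were, so p-values measure the spread between these samples.

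Counts were filtered with filterByExpr, scaled by TMM factors and fitted with edgeR 4.0.16 (quasi-likelihood test, R 4.3.3) on the 6 libraries without a covariate, with Benjamini-Hochberg adjustment over 15307 genes and a threshold of 0.05. Standard errors were obtained from each log2 fold change and its F statistic (change over the root of F). Log2 CPM used a prior count of 2. The fit was tested on simulated data, where it missed part of the smaller changes and its share of false calls was somewhat above the threshold. Libraries held 27277538 to 33237914 counts, so that 3 counts equal 0.091 to 0.108 CPM.

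The members and lists were chosen with earlier results of these data known. The text names all 8 members and ALDOA. Of each list it names the called genes (at most 4 by p) or, with none, the 2 of highest mean CPM. It also names the 2 nearest tested genes on each side of members with at least 1 CPM and the 5 genes most correlated with AQP2 and AQP5, and cell type markers. Sides were taken by start position, so a neighbour can overlap a member. Outside this rule, the other aquaporins with few or no counts, DGAT1, STX3, ASIC1, NCKAP5L and the genes at the ends of the chromosome 12 plot were named after their values were seen. Positions and lengths came from GENCODE release 44, promoters from RefSeq. The 13 alternatives were library totals only, upper quartile factors, no filter, a minimum of 10 counts per gene in all libraries, a block for replicate number, limma-voom (limma 3.58.1), DESeq2 1.42.0 and each of the 6 libraries left out. Figures were drawn with matplotlib 3.10.9.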

Additional observations from a re-analysis of the deposited data

How the results depend on the processing

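The log2 fold changes of AQP1, AQP2, AQP3, AQP5, AQP6 and AQP7 stayed positive in every alternative that gave a value, over ranges of 0.24 to 0.70, 1.90 to 2.46, 0.25 to 0.35, 0.89 to 1.00, 0.73 to 2.03 and 0.33 to 0.58. AQP11 ranged from -0.24 to 0.014. The members called higher numbered 2 to 4 and those called lower 0. This count moved because AQP1 crossed the threshold in 5 of 13 alternatives, AQP3 stayed past it in 8 of 13 and AQP2 had no value under the filter of 10 counts and no adjusted p from DESeq2. Nothing is read from these calls, since the comparison selected the family. With library totals only, the median of all tested genes rose from 0.0016 to 0.075, AQP5 was at 0.999, 279 genes of all were called lower, and the lists gave 5 higher and 3 lower calls in place of 2 and 5. The lists gave 4 higher calls with upper quartile factors, 4 higher and 8 lower with no filter, 1 higher with limma-voom and 4 higher with DESeq2. With the replicate block they gave 6 higher and 9 lower, and over all genes 987 were higher and 1175 lower. The labels do not say whether the replicate numbers pair the samples. Same-numbered libraries had correlations of deviations of 0.0348, 0.0274 and 0.0262, and each of the 6 libraries correlated best with its own number. That is a hint from the data and not from the design, and such small correlations cannot decide whether the samples were paired. Leaving out 1 library gave 359 to 644 genes higher and 471 to 790 lower over all genes. The lowest counts were 359 and 490 without siControl replicate 2 and 363 and 471 without siControl replicate 3. The lists gave 1 to 4 higher and 5 to 6 lower, with 1 higher without siALDOA replicate 3 or siControl replicate 2 and 4 without siALDOA replicate 1. Leaving out a library leaves fewer samples. For the other alternatives the cause was not tested. Depth limits AQP2, AQP6, AQP7 and AQP8, which had at most 65 counts per library. AQP6, too, has no value under the filter of 10 counts in every library.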
